A study of Mus musculus with 15 samples.

Results

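Fluticasone furoate (FF) was the reference compound here, and VSG158 and VSG159 were set against it, first pooled and then singly. The arrays were chosen by their titles, which gave 6 arrays of VSG158 and VSG159 together (3 of each) and 3 of FF, out of 15 in the series. Each array carried Cy3-labelled RNA of RAW264.7 cells, an established macrophage-like line of mouse origin, on an Agilent one-colour design. Cells were pretreated for 1 h with the compound at 100 nM and then given lipopolysaccharide (LPS) at 1 ug per ml for 16 h, so dose and times matched across the compounds. The other 6 arrays, 3 of vehicle (solvents ethanol and DMSO) and 3 of dexamethasone (DEX) at 100 nM, entered the same model and give the scale of the differences. LPS is part of the protocol given for every sample, but the vehicle samples are labelled by solvent alone, so it is an assumption here that vehicle cells had LPS as well. Nothing states that the 3 replicates of a group came from separate cultures, and the series text speaks of duplicates, so p-values measure only the spread between these arrays. VSG158 and VSG159 are code names, no structure is given for them, and no structural change is named here. The question is how closely the VSG compounds match FF, and how large a difference the data can exclude.

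Glucocorticoids bind the glucocorticoid receptor, a ligand-activated transcription factor encoded by Nr3c1. The bound receptor enters the nucleus, raises transcription of target genes such as Fkbp5 and Tsc22d3, and lowers transcription driven by NF-kB, AP-1 and interferon-regulated factors. In macrophages LPS acts through Toll-like receptor 4 to induce cytokines, chemokines, inducible enzymes and a secondary type I interferon response, and glucocorticoids are known for damping these. FF and DEX are both synthetic glucocorticoids, FF being an inhaled one.

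The 9 arrays lay on 2 slides, and the compounds did not share them evenly. VSG158 replicates 1 to 3 and VSG159 replicates 1 and 2 were on the slide that also held vehicle. VSG159 replicate 3 was on the other slide, beside the 3 FF and the 3 DEX arrays. It was therefore the only VSG array on the slide of FF, and between VSG158 and FF, slide and compound cannot be told apart. Among the 9 arrays 39.6% to 50.4% of the spots were well above background, and the 75th percentile of the signal ran from 736 to 1223. Spots were uneven on 3 arrays: non-uniform spots numbered 889 (VSG158 replicate 3), 541 (VSG159 replicate 1) and 559 (VSG159 replicate 2), against 26 to 78 on the other 6 arrays. These 3 arrays occupied neighbouring positions (6, 7 and 8) on 1 slide. Results that rest on them are given below with and without them. Against the label of macrophage-like cells, all 14 macrophage markers, among them Adgre1, Csf1r, Cd68 and Lyz2, were above background on all 9 arrays. Of other cell types, 3 of 10 T and B cell markers (Cd3e, Cd4 and Lck), 1 of 8 fibroblast markers (Dcn), 0 of 7 epithelial markers and 2 of 9 neutrophil and mast cell markers (S100a8 and Elane) were above background on all 9, while Cd3g, Col1a1, Cdh1 and Ly6g were above it on none. Their part in any difference was not tested.

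No gene was called different between the pooled VSG compounds and FF. Of 19394 genes tested with limma, 0 (0%) had a Benjamini-Hochberg adjusted p under 0.05, and the smallest adjusted p was 0.138. At an unadjusted p under 0.05 there were 1142 genes (5.89%), 231 higher and 911 lower with the VSG compounds. With 1 array left out in turn that count ran from 721 to 3223, the highest (16.8%) without VSG159 replicate 3. Without FF replicate 1 it was 721. Setting the 6 VSG values against the 3 FF values, 645 of 18498 genes with no missing value (3.49%) had groups that did not overlap, 87 with VSG above and 558 with VSG below. The median difference over all genes was -0.05 on the log2 scale, and the median size of a difference was 0.13. The sizes may be set beside the other contrasts of the same model, which share arrays with this one. FF against vehicle called 8248 genes (42.5%), and pooled VSG against vehicle called 9518 (49.1%). DEX against FF, both on 1 slide, called 813 genes (4.19%), of which 447 were higher and 366 lower with DEX. Pooled VSG against DEX called 1301 genes (6.71%), 425 higher and 876 lower with the VSG compounds. Array by array, a VSG array and an FF array differed by a median of 0.24 over the 18 pairs. Arrays of the same compound differed by a median of 0.175 over 9 pairs, and VSG158 arrays differed from VSG159 arrays by 0.273. The pairs within a compound were uneven, with a median of 0.161 within FF and 0.314 within VSG158. VSG159 replicates 1 and 2 differed by 0.147, and VSG159 replicate 3 differed from them by a median of 0.345. FF arrays differed from DEX arrays by a median of 0.27, VSG arrays from DEX arrays by 0.292, and FF arrays from vehicle arrays by 0.516. The pairs of VSG and FF arrays reached as low as 0.13, below the lowest pair within a compound (0.141).

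**Figure D1:**
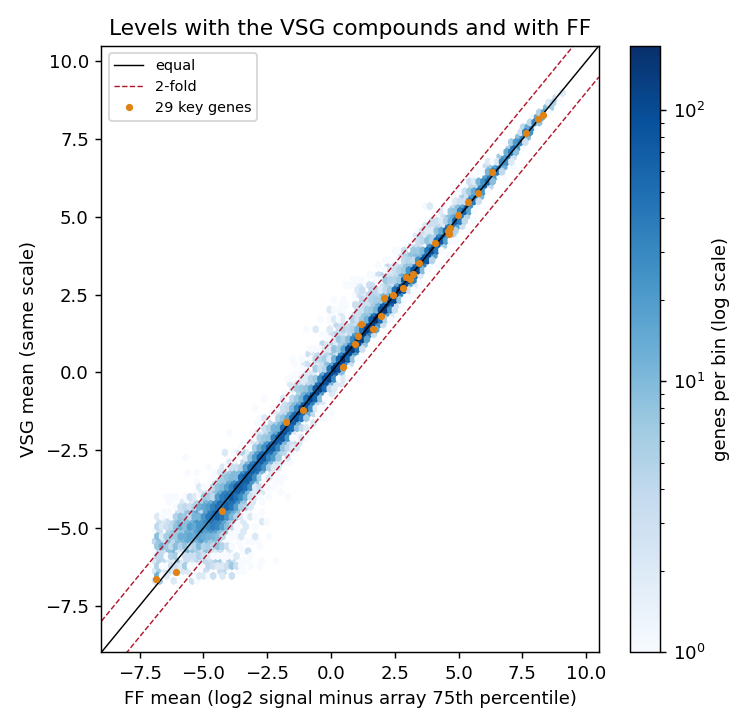
Mean log2 signal (relative to the array's 75th percentile) of each gene with FF, horizontal axis, and with the pooled VSG compounds, vertical axis; shading counts genes per bin on a log scale, orange points are the 29 genes followed individually, and dashed lines mark 2-fold. Most genes lie near the line of equality (median size of the difference 0.13), and the spread widens for dim genes and above the line.

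How large a difference can be excluded was read from the 95% confidence interval of each gene. The interval lay wholly inside 2-fold, in either direction, for 15174 of 19394 genes (78.2%), and inside 1.5-fold for 11808 (60.9%). It lay inside a margin of 25% (higher, or lower by the same factor) for 4953 genes (25.5%) and inside 4-fold for 17949 (92.5%). When equivalence within 2-fold was tested outright, with 2 one-sided limma tests per gene and Benjamini-Hochberg adjustment, 15627 genes (80.6%) passed. The half-width of the interval had a median of 0.33 on the log2 scale, and the farther bound from equality had a median of 1.39-fold. Precision differed with brightness. With genes split by signal into 4 equal bins, 46.2% of intervals lay inside 2-fold in the dimmest bin, 84.9% in the next, then 89.7%, and 92.1% in the brightest. Of the 14145 genes well above background on all 9 arrays, 12975 (91.7%) had intervals inside 2-fold and 79.5% inside 1.5-fold. For 201 genes no VSG or FF array was above background, and no fold is given for these. Of the 4220 genes without such an interval, 4195 had intervals that reached both inside and beyond 2-fold. The intervals of the other 25 lay wholly beyond 2-fold, 22 with VSG below FF and 3 above. None of the 25 was above background on all 9 arrays, and none was called after adjustment.

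**Figure D2:**
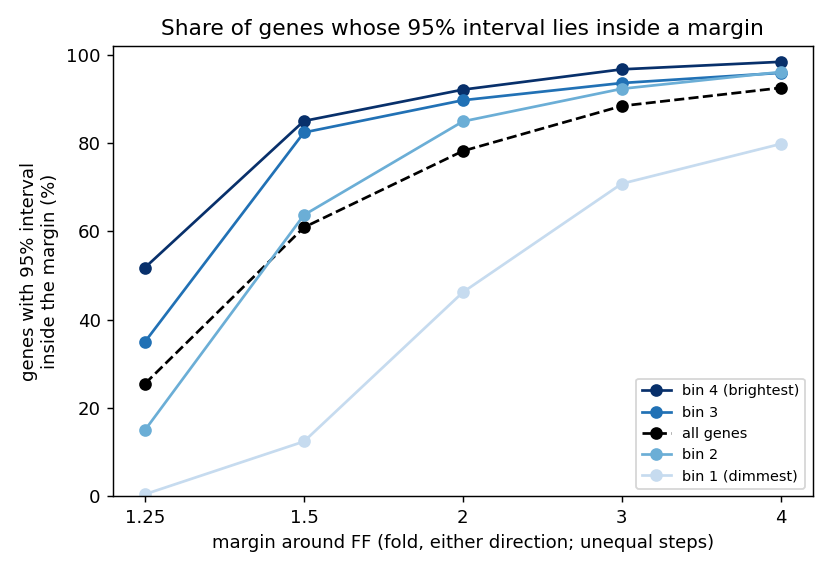
Share of genes (vertical axis, percent) whose 95% confidence interval for pooled VSG minus FF lies within the margin on the horizontal axis (fold in either direction), for all genes and for 4 equal bins of genes by mean signal over the 9 arrays. At 2-fold the share runs from 46.2% in the dimmest bin to 92.1% in the brightest, with 78.2% over all genes.

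Slide terms widened these bounds. With slide as a fixed block, 11936 of 19153 genes (62.3%) had intervals inside 2-fold and 0 were called, and with slide as a random block 13915 (71.7%) did and 0 were called. At an unadjusted p under 0.05 (limma) there were 1971 genes (10.3%) with the fixed block and 333 (1.72%) with the random block, beside 5.89% without a slide term. On the slide of FF alone, with VSG159 replicate 3 as the single VSG array and the spread taken from the FF and DEX arrays, the count was 13410 of 19378 (69.2%), again with 0 called. VSG159 replicate 3 differed from the FF arrays by a median of 0.201 over 3 pairs, less than from the other VSG159 arrays (0.345 over 2 pairs). Without the 3 arrays of most non-uniform spots, 14883 of 19378 genes (76.8%) lay inside 2-fold and 0 were called.

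One set of genes stood high on those 3 arrays. Among the genes above background on all 9 arrays, 134 had a mean at least 2-fold higher with the VSG compounds and 0 had one at least 2-fold lower. These 134 were picked by that difference, so their levels are a description without a test. Relative to the FF mean, their median stood at 2.40 for VSG158 replicate 3, at 2.76 for VSG159 replicate 1 and at 2.44 for VSG159 replicate 2. It was 0.40 on VSG158 replicate 1, 0.21 on VSG158 replicate 2 and -0.30 on VSG159 replicate 3, while the FF arrays stood at -0.38, -0.07 and 0.46. The highest medians were thus those of the 3 arrays of most non-uniform spots, at positions 6, 7 and 8. Vehicle arrays, at positions 1, 2 and 3 of the same slide, had medians of -0.07, 0.48 and 0.79, with 38, 45 and 64 non-uniform spots. DEX arrays, at positions 5, 6 and 7 of the other slide, had medians of 0.87, 1.35 and 2.12 for the same genes. They had 80, 135 and 218 non-uniform spots. The parts of spot quality, position and compound in these levels were not tested. Without the 3 arrays the median difference of the set was -0.01 and 1 of the 134 genes remained at least 2-fold higher, while 56 genes of those above background on all 9 arrays were then at least 2-fold lower.

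Taken singly, neither VSG compound had a called gene against FF. With p-values adjusted over both pairs together, VSG158 against FF called 0 (0%) and VSG159 against FF called 0 (0%), the smallest adjusted p being 0.446 in each. At an unadjusted p under 0.05 there were 1220 genes for VSG158 and 1182 for VSG159. Intervals lay inside 2-fold for 14186 genes (73.1%) with VSG158 and for 14555 (75%) with VSG159, and the median differences were -0.04 and -0.07. Between VSG158 and VSG159 limma also called 0 genes (0%), with a smallest adjusted p of 0.804 and 1203 genes at an unadjusted p under 0.05. That contrast had 14272 genes (73.6%) inside 2-fold. The counts of the single pairs depended on how arrays were weighted. With weights estimated from the data, 12 genes were called for VSG158 and 261 for VSG159 (142 higher and 119 lower than FF), and 0 for the pool. For the pool 3663 genes (18.9%) then had an unadjusted p under 0.05, and the smallest adjusted p was 0.0545 (limma), just above the cut-off. In that fit VSG159 replicate 3 had a weight of 0.205 and VSG158 replicate 3 one of 0.267, against 1.07 to 1.68 for the other VSG arrays. Leaving out VSG158 replicate 1 gave 13 calls for VSG158, and leaving out VSG159 replicate 3 gave 1 for VSG159.

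A panel of 29 genes was followed through these comparisons, ordered below by what their products do. Levels are log2 signals relative to the array's 75th percentile, and differences are pooled VSG minus FF on the log2 scale. Arg1, an arginine-degrading enzyme of macrophages, and Ifnb1, which encodes interferon beta, were not well above background on any VSG or FF array, so no fold between them is given. For each of the other 27 genes, equivalence within 2-fold passed (against 80.6% of all genes). The intervals of 24 lay inside 1.5-fold (against 60.9% of all genes), and 14 were higher and 13 lower with the VSG compounds. All but Mrc1 of the 27 were above background on all 9 arrays. Of all such genes, 91.7% had intervals inside 2-fold and 79.5% inside 1.5-fold, which is the nearer comparison. The widest bound was that of Rsad2 at 1.88-fold. The 6 VSG and 3 FF values overlapped for 26 of the 27, and Mmp9 was the exception. Over all genes 3.49% did not overlap, so 1 such gene among 27 is near the general share. Without the 3 arrays of most non-uniform spots all 27 again passed, with a widest bound of 1.88-fold, but several differences grew. Ptgs2 went from 0.09 to 0.44 (95% CI 0.23 to 0.65) and Ifit2 from 0.16 to 0.37 (95% CI 0.09 to 0.64). The intervals of Cxcl10 (0.37, 95% CI 0.10 to 0.64), Il10 (0.21, 95% CI 0.01 to 0.40) and Nr3c1 (0.21, 95% CI 0.02 to 0.40) then also lay above 0, while that of Mmp9 stayed below it (-0.23, 95% CI -0.45 to -0.01).

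**Figure D3:**
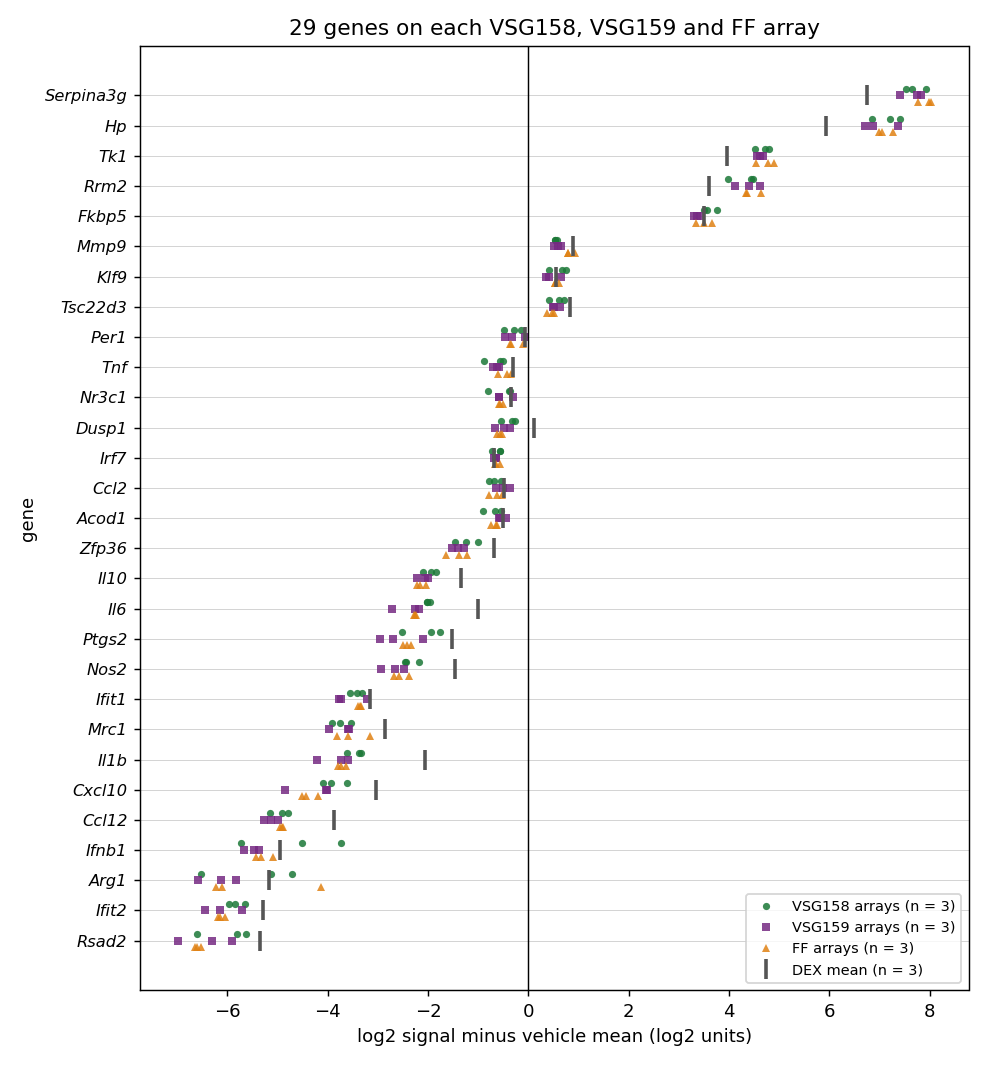
Each of 29 genes (rows) on each VSG158, VSG159 and FF array, as log2 signal minus the vehicle mean, with the DEX mean as a bar. The VSG and FF arrays of a gene sit together, while the DEX mean stands off on the vehicle side for genes such as Hp, Il1b and Il6; Arg1 and Ifnb1 were not above background on any VSG or FF array and Serpina3g was not with vehicle.

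Among genes known as glucocorticoid targets, Fkbp5 encodes a cochaperone of the receptor. Its level on the 6 VSG arrays ran from 4.46 through a median of 4.63 to 4.92, and on the FF arrays it was 4.50, 4.68 and 4.82. The difference was -0.02 (95% CI -0.27 to 0.24), with a mean 3.49 above vehicle for the VSG compounds (SE 0.12) and 3.50 for FF (SE 0.13). The VSG and FF arrays interleaved, all far above the vehicle mean of 1.17. Hp, the acute-phase haemoglobin-binding protein haptoglobin, was 4.19 to 4.90 (median 4.52) with VSG and 4.48, 4.76 and 4.53 with FF, a difference of -0.04 (95% CI -0.39 to 0.32). Serpina3g, a serine protease inhibitor, was 1.12 to 1.64 (median 1.42) with VSG and 1.48, 1.74 and 1.71 with FF, and it was not above background on any vehicle array. Its difference was -0.24 (95% CI -0.71 to 0.22), so that a level with the VSG compounds lower by more than 1.63-fold is outside the interval. Tsc22d3, which encodes the leucine zipper protein GILZ, differed by 0.12 (95% CI -0.09 to 0.33), and the transcription factor gene Klf9 by -0.02 (95% CI -0.23 to 0.19). Per1, a circadian clock gene, differed by -0.02 (95% CI -0.37 to 0.32). The MAPK phosphatase gene Dusp1 and the mRNA decay gene Zfp36 differed by 0.14 (95% CI -0.11 to 0.39) and 0.10 (95% CI -0.19 to 0.39). The receptor gene itself, Nr3c1, differed by 0.05 (95% CI -0.19 to 0.29). Not all these targets were above vehicle. Tsc22d3 (0.57 with VSG, 0.45 with FF) and Klf9 (0.54 and 0.56) were called higher than vehicle. Dusp1 (-0.44 with VSG, -0.57 with FF) and Zfp36 (-1.31 and -1.41) were called lower than vehicle. Per1 stood at -0.29 and -0.27 from vehicle and was not called.

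Of the cytokine genes, Il1b, which encodes the inflammatory cytokine interleukin-1 beta, was 3.60 to 4.47 (median 4.21) on the VSG arrays and 4.17, 4.08 and 4.01 on the FF arrays, far below the vehicle mean of 7.80. The difference was 0.08 (95% CI -0.20 to 0.36), and VSG159 replicate 3, on the slide of FF, lay at -0.02 from the FF mean. Il6 was 2.99 to 3.74 (median 3.59) with VSG and 3.41, 3.43 and 3.47 with FF, a difference of 0.07 (95% CI -0.16 to 0.30). In both genes the FF arrays fell inside the range of the VSG arrays. Tnf, for tumour necrosis factor, was 4.21 to 4.58 (median 4.49) with VSG and 4.74, 4.48 and 4.67 with FF. Its difference of -0.18 (95% CI -0.40 to 0.04) did not pass (adjusted p = 0.815, limma). A second probe of Tnf gave -0.27 (95% CI -0.49 to -0.06), which was not called either. Il10, the gene of an anti-inflammatory cytokine, differed by 0.12 (95% CI -0.07 to 0.31).

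Of the inducible enzymes, Nos2, the inducible nitric oxide synthase, was 5.37 to 6.12 (median 5.83) with VSG and 5.62, 5.71 and 5.92 with FF, with a difference of 0.03 (95% CI -0.21 to 0.26). Ptgs2, or cyclooxygenase 2, was 4.85 to 6.05 (median 5.50) with VSG and 5.31, 5.40 and 5.46 with FF, and differed by 0.09 (95% CI -0.31 to 0.49). Its VSG arrays spread around the FF arrays on both sides. Acod1, which makes itaconate, differed by 0.05 (95% CI -0.14 to 0.25). Ccl2, a monocyte attractant, differed by 0.05 (95% CI -0.16 to 0.26) and the related Ccl12 by -0.12 (95% CI -0.35 to 0.11). Cxcl10, an interferon-induced T cell attractant, was 1.63 to 2.86 (median 2.46) with VSG and 2.04, 1.96 and 2.28 with FF. Its difference of 0.30 (95% CI -0.10 to 0.69) leaves values up to 1.61-fold higher inside the interval. Of the 2 compounds, VSG158 stood higher (0.50, 95% CI 0.05 to 0.96, adjusted p = 0.798 over both pairs, limma) than VSG159 (0.09, 95% CI -0.36 to 0.54), and neither was called.

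Mmp9, the gelatinase gene, was the panel gene with the smallest p. It was 0.12 to 0.27 (median 0.17) on the VSG arrays and 0.54, 0.40 and 0.41 on the FF arrays. All 6 VSG arrays lay below all 3 FF arrays. The difference was -0.27 (95% CI -0.44 to -0.10, adjusted p = 0.815, limma), not called, and it bounds the VSG level at no more than 1.36-fold lower. A second probe of Mmp9 gave -0.16 (95% CI -0.45 to 0.12), and with slide as a fixed block the first gave -0.18 (95% CI -0.48 to 0.13). Mrc1, the mannose receptor gene, was above background on 3 of 6 VSG and 2 of 3 FF arrays and differed by -0.20 (95% CI -0.55 to 0.15).

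Of the interferon-induced genes of the panel, Rsad2, Ifit1 and Ifit2 lay far below vehicle, and Rsad2 had the widest panel interval against FF. The interferon-stimulated response element is the sequence through which type I interferon acts. Promoter stretches are shown for the panel genes with a match to it, which were Cxcl10, Rsad2 and Ifit1 but not Ifit2. The element was searched as GAAANNGAAA on both strands (TTTCNNTTTC on the other, overlapping matches kept) in 32851 RefSeq promoters (GRCm38.p6, from 250 bases before to 50 after a start). It was present in 1131 of them (3.44%), in 15 of the 26 type I interferon genes with an entry, and in 3 of the 22 panel genes with an entry. The matches, in capitals, with 20 bases on each side on the gene's strand, were as follows, at chr5:92349073-92349122 (minus strand), chr12:26456543-26456592 (minus strand), chr19:34640765-34640814 (plus strand) and chr19:34640784-34640833 (plus strand). Ifit1 had 2 matches, whose windows overlap, so each stands in lower case within the other's window.
Cxcl10: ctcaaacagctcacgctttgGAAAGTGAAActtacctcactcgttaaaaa
Rsad2: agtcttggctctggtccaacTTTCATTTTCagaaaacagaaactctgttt
Ifit1, match 1: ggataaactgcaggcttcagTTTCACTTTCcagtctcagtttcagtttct
Ifit1, match 2: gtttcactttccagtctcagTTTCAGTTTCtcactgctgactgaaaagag
A full palindromic glucocorticoid response element, searched as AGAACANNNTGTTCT, was found in 3 promoters of the 32851 (0.00913%), none of them of a panel gene and 1 of them of Sgk1, a kinase gene of the glucocorticoid-induced list.

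Rsad2, which encodes the antiviral enzyme viperin, was 0.78 to 2.15 (median 1.67) on the VSG arrays and 1.17, 1.12 and 1.24 on the FF arrays, against a vehicle mean of 7.77. The VSG arrays spread over more than the FF arrays and reached both below and above them. The difference was 0.39 (95% CI -0.13 to 0.91), the largest of the panel. Ifit2, an antiviral RNA-binding protein, was -2.09 to -1.29 (median -1.55) with VSG and -1.69, -1.78 and -1.83 with FF, a difference of 0.16 (95% CI -0.15 to 0.48). The related Ifit1 differed by -0.14 (95% CI -0.38 to 0.11), from 1.55 to 2.11 with VSG and 1.98, 1.98 and 1.92 with FF. Irf7, a transcription factor of the interferon response, differed by -0.02 (95% CI -0.46 to 0.43). With slide as a fixed block Ifit1 turned to 0.31 (95% CI 0.05 to 0.58), which was not called. For 4 genes above background slide as a fixed block ended the equivalence call: Ptgs2 (0.69, 95% CI 0.13 to 1.248), Cxcl10 (0.63, 95% CI -0.04 to 1.30), Ifit2 (0.65, 95% CI 0.24 to 1.06) and Rsad2 (0.52, 95% CI -0.44 to 1.47). In that fit the VSG level could be up to 2.78-fold from FF for Rsad2, and no panel gene was called different. The slide block with array position ended the equivalence call for these 4 and also for Hp (0.40), Serpina3g (-0.19) and Irf7 (0.45). Slide 2 alone ended it for Irf7 (-0.03), and slide as a random block for Rsad2 (0.45).

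Genes of nucleotide synthesis were higher with the VSG compounds and FF than with vehicle. Tk1, thymidine kinase, was 2.87 to 3.16 (median 3.02) with VSG and 2.91, 3.27 and 3.14 with FF, a difference of -0.09 (95% CI -0.32 to 0.14). Rrm2, a ribonucleotide reductase subunit, was 2.36 to 2.98 (median 2.78) with VSG and 2.71, 2.9995 and 2.73 with FF, a difference of -0.11 (95% CI -0.43 to 0.22). Both genes had FF values within or just above the VSG range. On 2 other probes Tk1 gave -0.37 (95% CI -0.67 to -0.06) and -0.31 (95% CI -0.56 to -0.06), neither called. Over all panel genes there were 14 other tested probes of 12 genes, and the intervals of 13 lay inside 2-fold; the exception was a probe of Cxcl10, with 0.19 (95% CI -0.78 to 1.17).

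**Figure D4:**
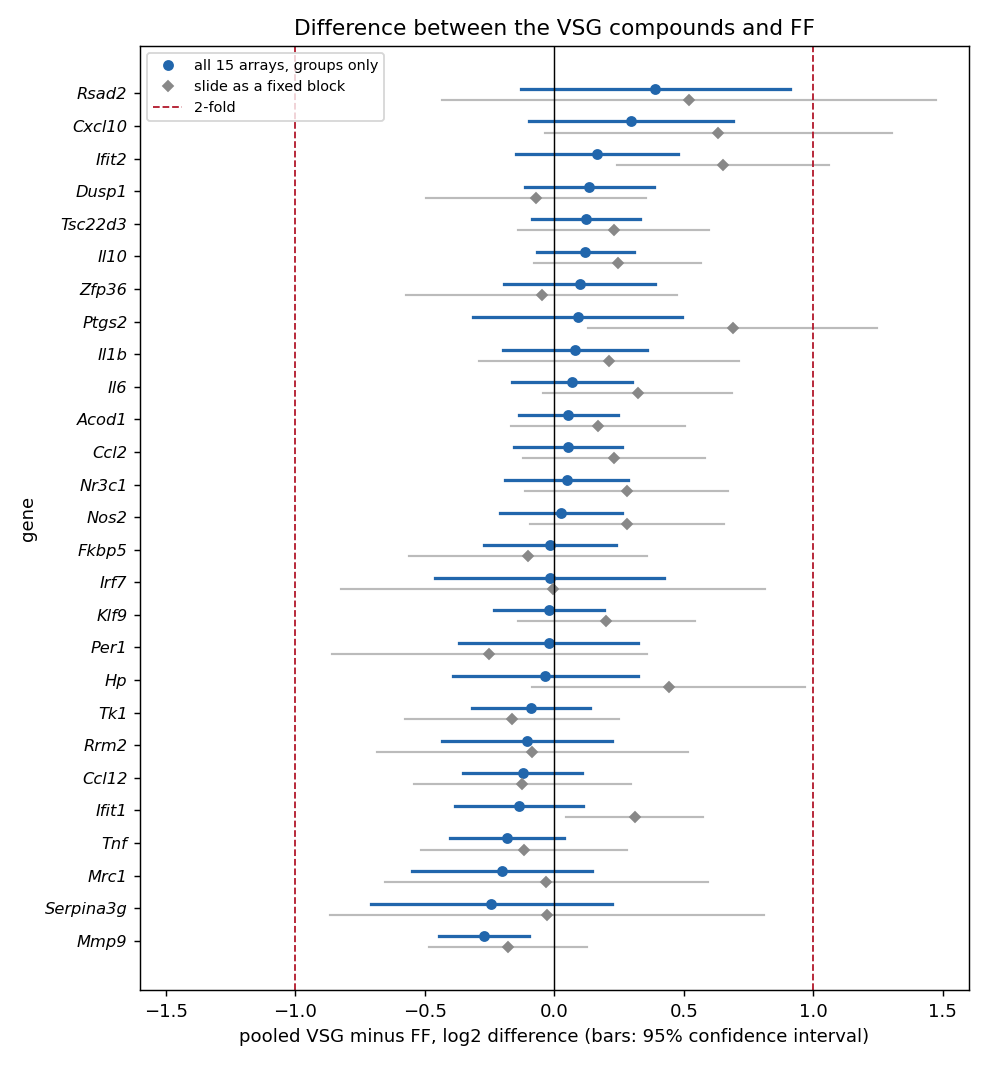
Pooled VSG minus FF (horizontal axis, log2 units) with 95% confidence intervals for the 27 panel genes above background with either, from the model with groups only (blue) and with slide as a fixed block (grey); dashed lines mark 2-fold. All 27 blue intervals lie between the dashed lines, and the grey intervals of Ptgs2, Cxcl10, Ifit2 and Rsad2 cross the line on the VSG side.

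Set against DEX, the panel stood further off with FF and with the VSG compounds than these did from each other. Of the 27 genes, 15 (55.6%, beside 4.19% of all genes) were called between DEX and FF, 16 (59.3%, beside 6.71%) between the pooled VSG compounds and DEX, and 0 between the VSG compounds and FF. The panel was chosen with earlier results of these data known, so its excess over all genes describes the panel and supports nothing further. These contrasts share arrays, so their values are given side by side. For Hp, VSG minus DEX was 1.13 (SE 0.16, adjusted p = 0.00292, limma) and DEX minus FF was -1.17 (SE 0.19, adjusted p = 0.00912), beside VSG minus FF of -0.04. For Il1b, VSG minus DEX was -1.58 (SE 0.13, adjusted p = 0.000264) and DEX minus FF was 1.66 (SE 0.15, adjusted p = 0.000862), beside 0.08. For Il6 the values were -1.18 (SE 0.11), 1.251 (SE 0.12) and 0.07, and for Nos2 they were -1.07 (SE 0.11), 1.10 (SE 0.12) and 0.03. Both compounds and FF were below DEX for these 3 inflammatory genes. Il10 gave -0.68 (SE 0.09), 0.80 (SE 0.10) and 0.12, Ccl12 gave -1.16 (SE 0.11), 1.04 (SE 0.12) and -0.12, and Cxcl10 gave -1.04 (SE 0.18), 1.34 (SE 0.21) and 0.30. Tk1 gave 0.68 (SE 0.10), -0.77 (SE 0.12) and -0.09. For Fkbp5 no contrast was called, with VSG minus DEX of -0.01 (SE 0.12) and DEX minus FF of -0.0024 (SE 0.13).

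Across 22 gene lists no member was called. Most list members named below were picked for being among the smallest p of their list. Intervals off 0 and groups without overlap therefore follow in part from that choice, and over all genes 3.49% did not overlap. The list medians ran from -0.13 to 0.08, beside -0.05 over all genes, except in the marker lists of other cell types, which have 1 to 5 tested members each. A list median here describes its members and was not tested. Those medians are without a slide term. With slide as a fixed block the median over all genes was 0.06, and some lists stood further above 0. Proinflammatory cytokines had 0.28, inflammatory enzymes and surface receptors 0.235, and NF-kB components and inhibitors 0.17. MAPK phosphatases and mRNA decay genes had 0.145 and type I interferon genes 0.12. Anti-inflammatory mediators had -0.07 and macrophage identity markers -0.025. Of 35 type I interferon genes, all intervals lay inside 2-fold and 31 inside 1.5-fold. Their median difference was -0.0012, from -0.24 (Oas3) to 0.39 (Rsad2). All 35 were called lower than vehicle with VSG and 34 with FF, beside 5417 of 19393 and 4174 of 19399 genes in all. The smallest p in that list was that of Oasl2, a 2'-5' oligoadenylate synthetase-like gene (-0.21, 95% CI -0.39 to -0.03). Interferon gamma and GTPase genes had 15 of 16 intervals inside 2-fold and a median of -0.06, and Gbp7, a guanylate-binding protein, gave -0.35 (95% CI -0.68 to -0.02). The exception, Gbp9, was above background on 1 VSG and no FF array. Proinflammatory cytokines had 16 of 17 intervals inside 2-fold and a median of -0.02, and NF-kB components and inhibitors had 16 of 16 and -0.03. In the latter Nfkbiz, an atypical IkB protein, had values of 3.35 to 3.74 with VSG, all above the FF values of 3.24, 3.35 and 3.34, and differed by 0.25 (95% CI 0.03 to 0.46).

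Of 18 chemokine genes measured, 14 intervals lay inside 2-fold, a share near the 78.2% of all genes, the median was -0.02, and the widest was that of Cxcl1, whose bound reached 3.96-fold. Ccl7, a monocyte attractant, was 4.47 to 4.72 on the VSG arrays and 4.34, 4.38 and 4.41 on the FF arrays, without overlap, a difference of 0.20 (95% CI 0.03 to 0.37). Inflammatory enzymes and surface receptors had 19 of 20 intervals inside 2-fold, and Cd86, a costimulatory ligand, gave -0.20 (95% CI -0.39 to 0.0001) and Icam1, an adhesion molecule, -0.29 (95% CI -0.58 to 0.01).

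The list of glucocorticoid-induced genes, the targets by which such compounds are usually compared, had a median difference of -0.03. Of 31 measured, 29 intervals lay inside 2-fold and 25 inside 1.5-fold. The widest was that of Zbtb16, a transcription factor gene (bound 2.54-fold). Rgs2, a regulator of G protein signalling, was 1.91 to 2.27 (median 2.07) with VSG and 2.30, 2.43 and 2.35 with FF. Its groups did not overlap, and the difference was -0.28 (95% CI -0.49 to -0.07, adjusted p = 0.815, limma), not called. Against vehicle, 13 members were called higher and 9 lower with VSG, and 12 higher and 8 lower with FF. Over all genes, 4101 of 19393 were called higher and 5417 lower with VSG. With FF, 4074 of 19399 were called higher and 4174 lower. MAPK phosphatases and mRNA decay genes had 16 of 17 intervals inside 2-fold and a median of 0.05, with Dusp10 at 0.35 (95% CI 0.05 to 0.64) and Dusp4 at 0.20 (95% CI 0.02 to 0.38). Anti-inflammatory mediators had 10 of 10 and -0.04, with Tgfb1, for transforming growth factor beta 1, at -0.40 (95% CI -0.70 to -0.10). Steroid receptors and steroid metabolism had 13 of 17 inside 2-fold and a median of -0.08. Genes of ion transport linked to the progesterone, mineralocorticoid and androgen receptors had 4 of 5 inside 2-fold and a median of 0.08, with Sgk1, a kinase that regulates sodium channels, at 0.08 (95% CI -0.15 to 0.32).

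Over all genes 61.3% were lower with the VSG compounds than with FF, and the counts of lists are read beside that share. Ribosome biogenesis and polyamine genes had 16 of 20 members lower and a median of -0.13, and 4 of 20 had an unadjusted p under 0.05, beside 5.89% of all genes. Srm, the spermidine synthase, was 3.19 to 3.54 (median 3.35) with VSG and 3.88, 3.60 and 3.83 with FF. Its groups did not overlap, and the difference was -0.40 (95% CI -0.62 to -0.18, adjusted p = 0.815, limma). All 20 intervals of the list lay inside 2-fold, and with slide as a fixed block its median was -0.01 and Srm gave -0.37. The median over all genes also rose with that block, to 0.06, so list medians under the block are read beside 0.06. Cholesterol and fatty acid synthesis genes had 27 of 28 intervals inside 2-fold and a median of -0.09, which was 0.02 with slide as a block. Their lowest p was that of Mvd, an enzyme of the mevalonate pathway, with 1.01 to 1.35 on the VSG arrays and 1.40, 1.42 and 1.39 on the FF arrays, a difference of -0.29 (95% CI -0.46 to -0.12). VSG159 replicate 3 was the highest of the 6 VSG arrays for Mvd, at -0.05 from the FF mean. Cell cycle and DNA replication genes had 37 of 39 intervals inside 2-fold and a median of -0.09 (0.01 with slide as a block). Mcm2, a subunit of the replicative helicase, gave -0.29 (95% CI -0.46 to -0.11), without overlap and with -0.33 under the slide block.

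Stress and metabolic lists lay close to the median of all genes. Oxidative stress and iron genes had 12 of 13 intervals inside 2-fold and a median of 0.0046, and glycolysis and hypoxia genes had 19 of 20 and -0.02. Unfolded protein response genes had 13 of 14 inside 2-fold and a median of -0.01. Chac1, a glutathione-degrading enzyme of the stress response, was 3.23 to 3.43 with VSG and 3.63, 3.58 and 3.61 with FF, without overlap, and differed by -0.28 (95% CI -0.45 to -0.11). Macrophage identity markers had 13 of 14 inside 2-fold and a median of 0.0045, with Spi1, the lineage transcription factor gene, at -0.26 (95% CI -0.54 to 0.03). In the marker lists of other cell types, tested members numbered 5 (T and B cell), 3 (fibroblast), 1 (epithelial) and 2 (neutrophil and mast cell), and their medians were 0.11, -0.18, -0.67 and 0.37.

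Genes that respond to DEX were taken as those called and at least 2-fold changed between DEX and vehicle. That contrast uses the means of DEX and vehicle, but the VSG and FF arrays entered its calls through the shared variance of the model. DEX shares its slide with FF, and vehicle shares its slide with most VSG arrays. The 1690 genes higher with DEX had a median VSG minus FF difference of -0.06, with 82.4% of intervals inside 2-fold. The 1675 genes lower with DEX had a median of -0.08, with 78.1% inside 2-fold, beside -0.05 and 78.2% over all genes. Against vehicle, the medians of the higher set were 1.38 with VSG and 1.45 with FF, and those of the lower set were -1.33 and -1.27. The median level of the lower set ran from -2.43 to -2.03 over the VSG arrays and was -2.19, -2.20 and -2.30 on the FF arrays. FF lay within the VSG range, but its top was VSG159 replicate 3, on the slide of FF. The other VSG arrays ran from -2.43 to -2.22, below FF replicates 1 and 2. For that set the sign of the median depended on the arrays: VSG159 replicate 3 stood at 0.16 from FF, slide as a fixed block gave 0.23 and as a random block 0.08, and without the 3 arrays of most non-uniform spots it was 0.08. For the higher set VSG159 replicate 3 stood at -0.03, and slide as a fixed block gave -0.02. Over all genes the medians were 0.02 for VSG159 replicate 3 and 0.06 with slide as a fixed block.

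**Figure D5:**
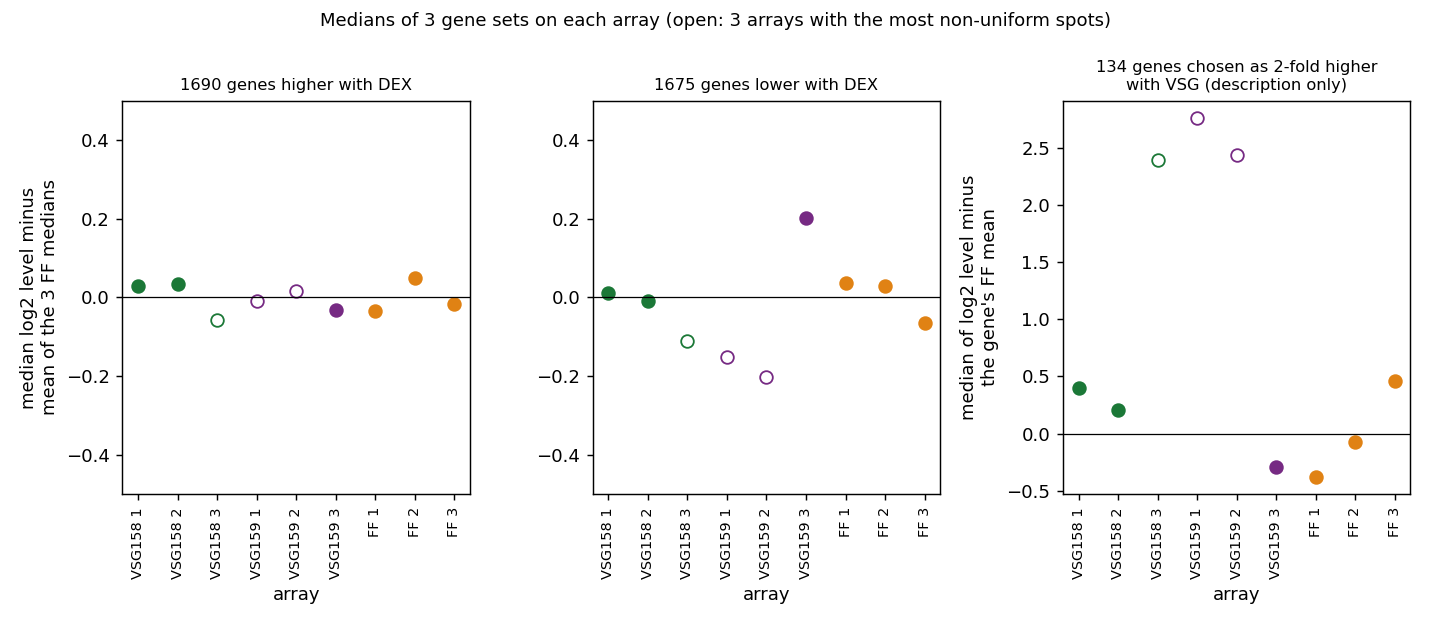
Median level on each VSG and FF array (horizontal axis) of the 1690 genes higher and the 1675 genes lower with DEX, relative to the mean of the 3 FF medians, and of the 134 genes chosen as 2-fold higher with VSG, relative to the FF mean of each gene; open points are the 3 arrays with the most non-uniform spots. In the right panel these 3 arrays stand at 2.40 to 2.76 and the other 6 between -0.38 and 0.46.

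The smallest p-values among well-measured genes, listed after their values were seen, belonged to small differences. Rab23, a small GTPase gene, was -2.76 to -2.49 (median -2.62) with VSG and -2.33, -2.14 and -2.29 with FF, a difference of -0.37 (95% CI -0.53 to -0.21, adjusted p = 0.581, limma). Pou2f2, a lymphoid and myeloid transcription factor gene, was -0.91 to -0.61 with VSG and -0.29, -0.45 and -0.44 with FF, a difference of -0.40 (95% CI -0.59 to -0.20, adjusted p = 0.811, limma). VSG159 replicate 3 shared the direction in both, at -2.59 and -0.61. None of the 8 genes with the smallest p above background on all 9 arrays differed by more than 0.40. Dim genes gave the larger differences. Above background on all 3 FF arrays and on no VSG array were 19 genes, and 1 gene had the reverse pattern, with 0 of them called. Of the 19, 12 passed the filter on dim probes only through FF, the group where they were high, so they had to differ and their number supports nothing. Siglecg, a sialic acid-binding lectin, passed only through FF and was picked by its small p. It was -3.01, -4.42 and -4.13 with FF and -7.34 to -5.27 with VSG. A bound was taken by setting the FF mean against the dimmest signal counted as above background on the VSG arrays. For Siglecg it was 1.52-fold, which describes these arrays and supports no difference (adjusted p = 0.635, limma). Of the 19 genes, the 8 with plain names and the smallest p had bounds from 1.02-fold to 1.99-fold, which are likewise descriptions without an interval.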

How the data were processed

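Scanner output came from Feature Extraction 10.7.3.1, per the file headers, for an array design that names build mm9. The authors deposited a processed signal intensity per spot, already background-subtracted and detrended within the array. A deposited value table holds log2 values, made with limma (no version given) per the submitters' processing notes; scale and centring are not stated, array medians were 5.8 to 5.83, and it served as an alternative. Here (R 4.3.3, limma 3.58.1 and data.table, version 1.17.8) control spots (3671 of 62976) and spots marked as outliers were left out, probes were averaged, and log2 signals were set relative to each array's 75th percentile. A probe was kept when well above background on 2 of 3 arrays of any group, and the brightest kept probe stood for its gene; 19400 genes were kept and 19394 had a value in all groups compared.

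One model held all 15 arrays in 5 groups (residual degrees of freedom 10), with the contrast of the mean of both VSG groups minus FF, two-sided, called at a Benjamini-Hochberg adjusted p under 0.05. Intervals are moderated 95% intervals, and equivalence used 2 one-sided tests against 2-fold. The 2 compound pairs were adjusted together. The script was tested on simulated data. Members and lists were chosen with earlier results of these data known. Named genes were a panel of 29, up to 4 genes per list by smallest adjusted p, and the largest called differences, of which there were 0. Replicate numbers did not pair the arrays: deviations of same-numbered VSG and FF arrays correlated at -0.547 to 0.305. Symbols were updated from RefSeq (GRCm38.p6) for 347 of 13398 matched genes. Promoters came from RefSeq. Alternatives covered scaling, background, filters, slide, position, weights, left-out arrays and, chosen after seeing the data, the 3 arrays of most non-uniform spots.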

Additional observations from a re-analysis of the deposited data

Results flagged for a closer look

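Of 104 values compared over the 6 VSG arrays, 3 (2.88%) had 1 array set apart from the other 5, where chance gives about 1 in 20. Hspa5, the endoplasmic reticulum chaperone gene, stood at 6.48 for VSG159 replicate 3, the only VSG array on the slide of FF, with the remaining VSG arrays between 7.19 and 7.27, while the FF arrays were at 6.49, 6.50 and 7.21. Its pooled VSG minus FF difference was 0.36 (95% CI -0.10 to 0.82), and -0.25 with slide as a fixed block. Gbp7, a guanylate-binding protein gene, stood at -0.78 for VSG159 replicate 2, where the other VSG arrays lay between -0.47 and -0.41. Dcn, a fibroblast matrix gene, was -2.20 on VSG158 replicate 3 and -1.64 to -1.35 on the other 5. VSG158 replicate 3 and VSG159 replicate 2 are among the arrays of most non-uniform spots, whose part in these values was not tested.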

How the results depend on the processing

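No difference between the pooled VSG compounds and FF was called under any of the other scalings, backgrounds, filters, slide or position terms or weights tried, except for 2 genes with quantile normalization and 1 with 9 arrays in 2 groups. With 1 array left out in turn the count was 0 to 4 (4 without VSG158 replicate 1, 2 without VSG159 replicate 3, 1 without DEX replicate 2, 2 without DEX replicate 3), and for each compound alone it was 0 to 13 (VSG158) and 0 to 1 (VSG159). Array weights gave 12 calls for VSG158 and 261 for VSG159 (142 above FF, 119 below), with 0 for the pool. The smallest adjusted p of the pool was then 0.0545 (limma). At a margin of 25%, 4953 intervals lay inside and 1503 genes were equivalent. Intervals inside 2-fold numbered 10978 with slide block and array position together and 17358 with normexp and quantile. The median of genes higher with DEX was -0.10 with median scaling and -0.0173 with slide as a fixed block. Over all genes the median was -0.09 with median scaling and 0.06 with slide as a fixed block. The median of genes lower with DEX, -0.08 as reported, changed sign with slide as a fixed block (0.23), slide as a random block (0.078), slide 2 alone (0.16), slide block and array position (0.069), array position alone (0.05), and without the 3 arrays of most non-uniform spots (0.08), an alternative chosen after seeing the data. The cause was not tested. With the replicate number as a block, although the numbers do not pair the arrays, 0 genes were called and 14997 intervals lay inside 2-fold. The number of arrays limits the precision, most for dim genes.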
